A study of Mus musculus with 12 samples.

Results

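Long intergenic noncoding RNAs (lincRNAs) are long spliced or unspliced transcripts that lie between protein-coding genes and carry no evident reading frame. The testis transcribes more of them than most organs, and many appear in pachytene spermatocytes, the germ cells in the long middle stage of meiotic prophase in which homologous chromosomes are fully paired and recombine. Some such transcripts are precursors of pachytene piRNAs, small RNAs bound by PIWI proteins, and others host microRNAs or have no known role.

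The transcripts described here are the 200 lincRNA rows of the deposited gene table with the most unique molecular identifiers (UMIs, tags that count each captured RNA molecule once) summed over all kept cells. They were chosen from 5854 lincRNA rows, of which 5089 had at least 1 UMI, in a table of 55450 genes. The summed UMIs chose them, so their abundance is a description. Together they held 2406007 UMIs, 79.7% of all lincRNA UMIs and 1.90% of all 126698949 gene UMIs. The most abundant was Rbakdn with 168941 UMIs, and the 10 most abundant held 35.7% of the total. The 3 rows just inside the limit were 4930549P19Rik with 2344, Gm2093 with 2333 and Gm12763 with 2324 UMIs, and the 3 rows just outside were 4632411P08Rik with 2320, 4930568A13Rik with 2319 and 4933406I18Rik with 2304. All 200 passed the filter on low counts, as did 20279 genes in all, and 180 of the 200 had at least 1 UMI in every library.

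The study profiled hand-picked single testicular germ cells of C57BL/6 mice whose meiosis was synchronised: pups of 2 days received WIN 18,446, an inhibitor of retinoic acid synthesis, for 7 days, and retinoic acid was injected on day 8 of the schedule. Cells were collected 260 h after retinoic acid (labelled early pachytene) or 360 h after it (late pachytene), from wild-type (WT) mice and from mice lacking Zfp541 (Zfp541-/-, here KO). ZFP541 is a zinc finger protein of a histone deacetylase complex that male meiosis needs to finish prophase. Each of the 4 groups has 3 libraries, and all of them share the inhibitor and the injection. Whether the 3 libraries are 3 animals is not in the labels, and the p-values then reflect the spread of these libraries, which may be technical. The deleted part of the gene is not in the labels either, so its own level is no check of the genotype.

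The 12 libraries had 96 cell barcodes each, drawn from the same 96 barcode sequences, and 929 of 1152 barcodes were kept by the authors (50 to 94 per library). A kept cell held a median of 116685 UMIs, spike-ins included. The 3 WT libraries at 360 h gave 43.5% of all gene UMIs and 58.9% of the UMIs of the 200 lincRNAs, so a sum over libraries favours RNAs that are high there. A ranking by the mean level of the 4 groups kept 193 of the 200. One library stood apart from its group: WT library 3 at 260 h had 72 of its 89 cells in k-means cluster 3 of the deposited cell table, the cluster that also holds 59, 50 and 32 cells of the 3 KO libraries at 260 h. WT libraries 1 and 2 had 25 of 52 and 56 of 68 cells in cluster 2 and 0 and 1 in cluster 3. The summed level of 5 macrophage markers was 36.4 and 53.9 CPM (counts scaled to a common library size, defined below) in WT libraries 1 and 2 against 4.88 in library 3 and 2.74 to 7.62 in the KO libraries at 260 h, and 5 Leydig cell markers summed to 96.2, 56.0 and 20.4 CPM in the WT libraries. Other lists did not part the libraries this way. At 260 h, 6 endothelial and peritubular markers summed to 172, 130 and 29.0 CPM in WT and 148, 94.3 and 43.9 in KO. The 7 Sertoli cell markers summed to 61.7, 52.3 and 57.6 in WT and 57.8, 42.0 and 90.6 in KO. The 3 blood markers summed to 458, 0.534 and 14.0 in WT and 10.8, 183 and 130 in KO. Because library 3 lay in another cluster, results at 260 h are given also with library 3 as the only WT library.

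The label lincRNA held for most but not all members. RefSeq (GRCm38.p6) entries were matched by gene name or synonym and overlapping position. Of 158 members matched, 148 were classed there as lncRNA, 7 as protein coding, 2 as transcribed pseudogenes and 1 as a pseudogene. The pseudogene is Gm10076, the fourth most abundant member, and reads of such a copy can be shared with its parent gene, so its level is uncertain. An open reading frame of at least 100 codons was found in 42 of 200 members (21%) and in 21.4% of the 1087 other tested lincRNA rows. In the annotation, 65 members (32.5%) overlapped another gene, 18 of them a protein-coding gene. The sources used here do not say whether counting used strand, so reads of overlapping genes cannot be told apart.

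The members are described by position without a test. The median distance to the nearest protein-coding gene was 16794 bases, against 45554.5 for the other 5654 lincRNA rows. A start within 2 kb of the start of a protein-coding gene on the opposite strand, pointing away from it, was found for 37 members (18.5%) and for 266 other lincRNAs (4.70%). No member lay on the X chromosome, which holds 96 (1.70%) of the other lincRNA rows and 9 of the 1287 lincRNA rows that passed the filter. The X chromosome is transcriptionally silenced in pachytene spermatocytes. The median total exon length was 1408.5 bases for the members and 1024.5 for the others, and 11 members had a single exon.

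Some members also lay head to head with each other. In 4 pairs the starts of 2 members were less than 2 kb apart and pointed away from each other: Gm10619 and Gm21269 (43 bases), 1700100I10Rik and Gm31072 (51 bases), 4930535E02Rik and Gm35584 (62 bases), and 4930477E14Rik and Gm26654 (367 bases). Divergent starts of this kind are a known arrangement of noncoding loci in spermatocytes, where A-MYB (Mybl1), a transcription factor that switches on pachytene genes, binds between them. Binding between the starts of these 4 pairs was not measured. The start regions of 4 members are shown because they hold the A-MYB core word CAGTTG on either strand and because their RNAs carry results given below. Of these members only 1700100I10Rik belongs to a pair listed above, so the sequences say nothing on the other pairs. Each region runs from 250 bases before to 50 after the RefSeq start on GRCm38.p6. Capitals mark every match to 4 words searched on both strands: CAGTTG (the MYB core), TGACGTCA (the CRE of CREM-type factors), CACGTG (an E-box) and CCAAT (the NF-Y box), with overlapping matches counted for each word.
Rbakdn, chr5:143165702-143166001, minus strand: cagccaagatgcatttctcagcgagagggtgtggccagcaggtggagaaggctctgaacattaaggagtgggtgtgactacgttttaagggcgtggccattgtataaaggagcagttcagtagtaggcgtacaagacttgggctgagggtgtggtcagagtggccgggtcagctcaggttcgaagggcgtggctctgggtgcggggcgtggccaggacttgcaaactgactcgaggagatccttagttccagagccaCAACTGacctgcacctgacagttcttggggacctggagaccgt
1700100I10Rik, chr14:114945899-114946198, minus strand, which also spans the start of Gm31072: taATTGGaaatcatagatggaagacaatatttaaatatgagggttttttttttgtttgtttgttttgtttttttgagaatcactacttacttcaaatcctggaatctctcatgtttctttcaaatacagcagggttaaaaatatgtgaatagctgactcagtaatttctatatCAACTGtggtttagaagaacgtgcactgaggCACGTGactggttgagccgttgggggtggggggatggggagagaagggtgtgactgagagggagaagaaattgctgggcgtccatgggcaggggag
1700003I22Rik, chr1:56018728-56019027, plus strand: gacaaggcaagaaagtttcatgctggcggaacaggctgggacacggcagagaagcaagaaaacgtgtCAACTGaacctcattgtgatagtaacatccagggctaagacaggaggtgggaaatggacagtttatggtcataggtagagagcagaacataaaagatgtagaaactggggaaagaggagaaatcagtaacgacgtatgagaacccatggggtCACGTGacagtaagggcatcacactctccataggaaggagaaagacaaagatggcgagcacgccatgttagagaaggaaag
Gm6639, chr3:35666114-35666413, minus strand: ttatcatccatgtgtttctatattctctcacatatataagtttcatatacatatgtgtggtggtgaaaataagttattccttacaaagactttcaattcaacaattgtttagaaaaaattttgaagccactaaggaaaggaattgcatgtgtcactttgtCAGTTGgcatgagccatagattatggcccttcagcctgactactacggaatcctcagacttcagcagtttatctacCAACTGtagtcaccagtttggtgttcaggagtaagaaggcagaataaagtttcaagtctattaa

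RefSeq start regions were at hand for 120 members, 96 of them with a start within 100 bases of the annotated one. CAGTTG was present in 25 of the 120 (20.8%) and in 13.7% of all 32851 start regions of that length. The CRE word was present in 8 (6.67%, against 1.79% of all), the E-box in 11 (9.17%, against 7.15%) and the NF-Y box in 54 (45.0%, against 37.4%). Among the 54 members with a start region that were lower in KO at 360 h (below), 15 (27.8%) held CAGTTG, and among the 8 that were higher, 0 did. Of the 58 that were not called, 10 (17.2%) did. The NF-Y box was present in 55.6% of the lower, 37.5% of the higher and 36.2% of the members not called. The share of G and C bases had medians of 48.5%, 56.3% and 54.3% in these sets, and 52.7% over all start regions. The part of base composition in the word counts was not tested. A matching word is a description of these letters and not a bound site.

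Levels were compared over the 12 libraries as CPM, the usual unit of UMIs of a gene scaled to a fixed total of gene UMIs, with library sizes scaled by TMM (a trimmed mean of ratios), and tested with edgeR's quasi-likelihood test across all 20279 genes. A member is called when its Benjamini-Hochberg adjusted p is below 0.05 over all of these genes. The test calls a change more readily at higher counts, and by choice the members have more UMIs than the other lincRNA rows. Their counts of calls are therefore not like for like. Means are given ± SD (n = 3 libraries) and log2 fold changes ± SE. Between genotypes, libraries did not overlap for 14.6% of all genes and 34.5% of members at 260 h, and for 44.2% and 76.0% at 360 h. Between times, the shares were 50.6% and 81.5% in WT and 46.0% and 72.5% in KO. For genes picked by the naming rule given below, lack of overlap is part of the choice.

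As a share of gene UMIs the 200 lincRNAs were highest in WT at 360 h. They held 1.24% ± 0.208 in WT at 260 h, 1.05% ± 0.086 in KO at 260 h, 2.63% ± 0.238 in WT at 360 h and 1.81% ± 0.056 in KO at 360 h (SD, n = 3). By mean level, 157 of the 200 were highest in WT at 360 h, 21 in KO at 360 h, 13 in WT at 260 h and 9 in KO at 260 h, which is in part the choice of the members by summed UMIs. The spread between libraries was wider at 260 h: the median coefficient of variation of a member was 44.2% in WT and 47.1% in KO there, against 27.7% and 24.4% at 360 h.

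**Figure D1:**
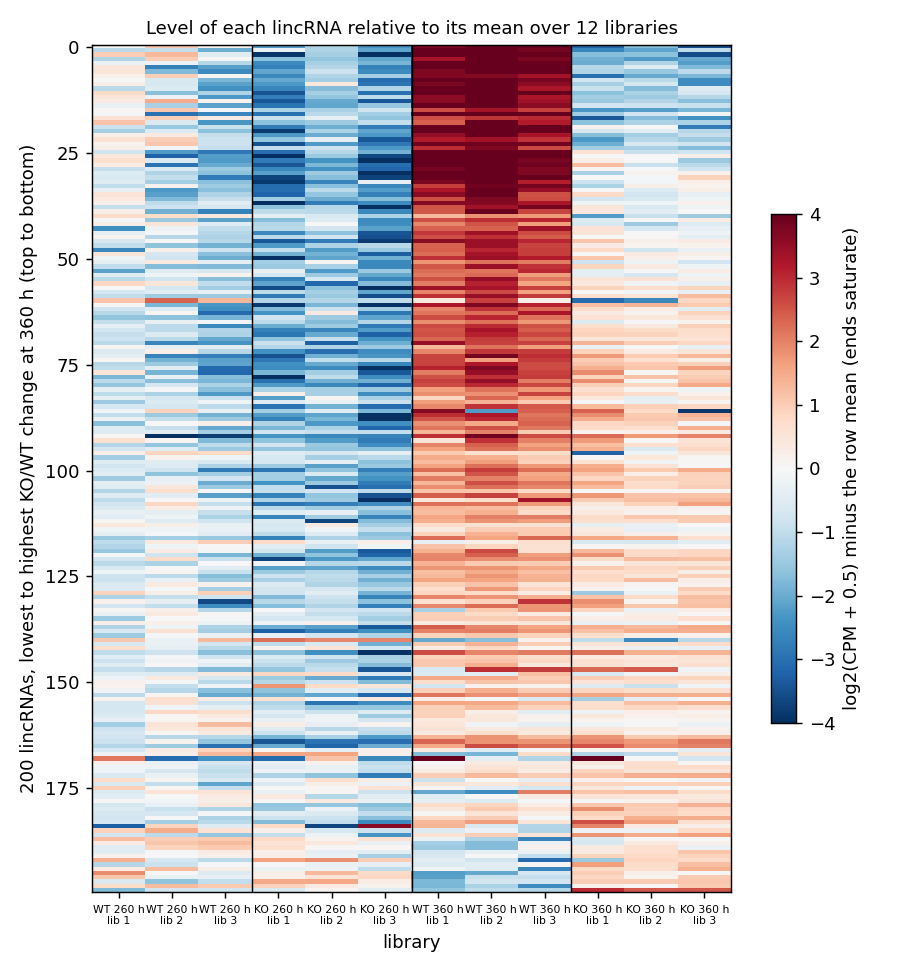
Level of each of the 200 lincRNAs (rows, ordered by the KO against WT change at 360 h) in each of the 12 libraries (columns), as log2(CPM + 0.5) minus the row mean, with colours saturating at the ends of the scale. The upper rows are red in the 3 WT libraries at 360 h and pale or blue in all other libraries, and the few rows at the bottom are paler or blue in WT at 360 h.

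The first comparison asks how lincRNA levels changed between early and late pachytene in WT cells. In WT, 153 members rose and 9 fell from 260 h to 360 h, whereas 39.9% of all genes tested were called (20.9% higher and 18.9% lower). The median log2 fold change was 2.52 over the 200 members, -0.10 over all genes and 1.22 over the 1087 other lincRNA rows, of which 370 rose and 73 fell. Since the members were chosen by UMIs that come mostly from WT at 360 h, part of this difference from other lincRNAs is set by the choice.

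Rbakdn (chr5:143164779-143165751), the most abundant member, lies near the zinc finger gene Rbak. It measured 414, 424 and 128 CPM in the 3 WT libraries at 260 h and 3107, 3851 and 1931 at 360 h (log2 fold change 3.2 ± 0.52, adjusted p = 0.000376, edgeR). The times did not overlap, and library 3 was the lowest at both. In KO it went from 88.2, 194 and 51.9 to 1930.0, 1274 and 1296 CPM (3.75 ± 0.54, adjusted p = 0.000313), so the RNA rose in both genotypes.

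The steepest rises by the rule for named genes (calls whose libraries do not overlap and whose mean is at least 10 CPM) were those of 4933400L20Rik, 4930556C24Rik, 4933402J10Rik, 1700007H22Rik, Gm32554 and Gm15389, RNAs at no more than 4.02 CPM in any WT library at 260 h. 4933400L20Rik went from 1.89, 0.356 and 0.0728 CPM to 72.5, 131 and 64.2 (7.22 ± 1.06, adjusted p = 0.000196). 4930556C24Rik went from 0.946, 1.07 and 0.291 to 66.2, 101 and 42.7 CPM (6.65 ± 0.87, adjusted p = 5.25e-05). Gm15389 went from 1.42, 0.711 and 1.38 to 85.4, 80.4 and 71.1 CPM (6.04 ± 0.97, adjusted p = 0.000345). In each of these 3 RNAs every library at 360 h lay far above every library at 260 h. Of the other 3, log2 fold changes were 6.61 for 4933402J10Rik, 6.36 for Gm32554 and 6.34 for 1700007H22Rik.

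The 9 members that fell in WT were D330050G23Rik, 1700031P21Rik, Gm26825, Mir17hg, Mir124-2hg, Gm26917, Bc1, Gm49192 and Gm49794. D330050G23Rik fell from 35.5, 51 and 43.6 CPM to 5.59, 8.49 and 3.27 (-2.92 ± 0.42, adjusted p = 0.000104), with no overlap. Gm26825 fell from 87.5, 72.4 and 75.4 to 30.4, 15 and 5.26 CPM (-2.22 ± 0.46, adjusted p = 0.0015). The calls of D330050G23Rik and Gm26825 held under all 14 alternative fits, and the other 7 did not. Those of Bc1, 1700031P21Rik, Gm26917, Gm49192, Mir124-2hg and Mir17hg were lost with spike-in scaling, and those of Bc1, 1700031P21Rik and Gm26917 also without the pre-meiotic cells or without WT library 1 at 260 h. With WT library 3 as the only WT library at 260 h all of these but that of Mir17hg were lost. That of 1700031P21Rik was lost without WT library 2 at 360 h too, and that of Gm26917 without WT library 3 at 260 h or WT library 1 or 2 at 360 h. That of Gm49192 was also lost without the pre-meiotic cells, with RLE size factors, with only the 2 groups compared, without WT library 2 at 260 h and without WT library 2 or 3 at 360 h.

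Mir17hg hosts the miR-17-92 microRNAs, a cluster that promotes proliferation in many cell types. Its level was 30.7, 53.5 and 58.8 CPM in WT at 260 h and 9.07, 6.98 and 20.4 at 360 h (-1.96 ± 0.44, adjusted p = 0.00268), and 35.7, 32.6 and 20.2 and then 15.5, 32.1 and 27.8 CPM in KO (-0.23 ± 0.43, adjusted p = 0.737). The WT libraries did not overlap between the times and the KO libraries did. The test of the difference of these changes gave 1.73 ± 0.61, adjusted p = 0.116. Mature microRNAs were not measured: the method counts the 3′ ends of longer RNAs. The guide microRNAs that lie inside the gene fall into groups that share a seed (bases 2 to 8, in capitals, from RefSeq on GRCm38.p6), and they are shown because the host is one of the few members to fall.
miR-17-5p: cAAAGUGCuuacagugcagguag
miR-20a-5p: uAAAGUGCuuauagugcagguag
miR-18a-5p: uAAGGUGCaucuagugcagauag
miR-19a-3p: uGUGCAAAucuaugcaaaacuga
miR-19b-3p: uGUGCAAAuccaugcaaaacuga
miR-92a-3p: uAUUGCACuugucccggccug
miR-17-5p and miR-20a-5p share 1 seed, and miR-19a-3p and miR-19b-3p share another.

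In KO, 116 members rose and 3 fell between the times, whereas 23.5% of all genes were called (13.3% higher and 10.2% lower). The median log2 fold change was 1.67, against -0.15 for all genes. The WT and KO time comparisons share no library. Of the 153 members that rose in WT, 106 (69.3%) also rose in KO, which is 91.4% of those that rose in KO. Another 46 were not called in KO, and 1, Gm47708, fell there. The difference between the 2 changes was tested directly only by the interaction, given further below.

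**Figure D2:**
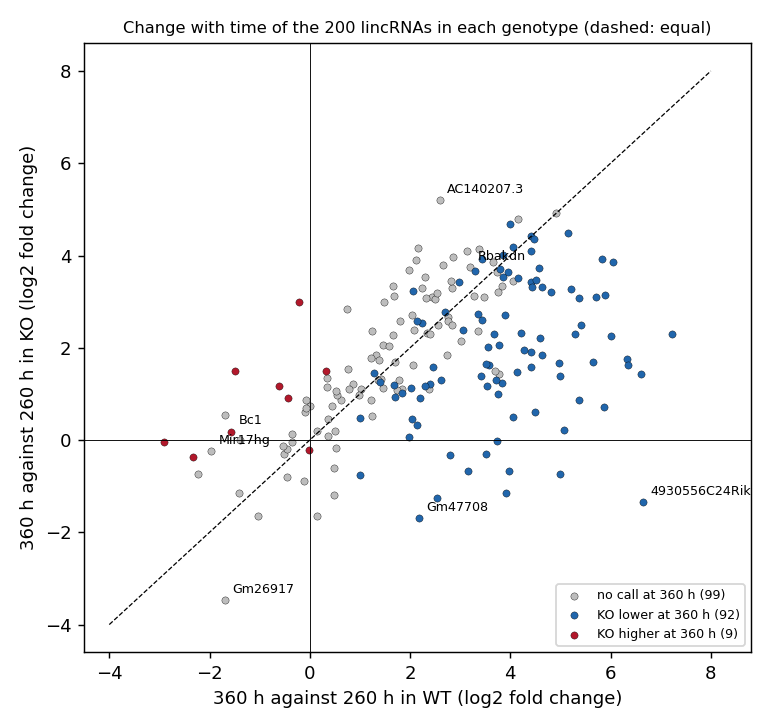
Log2 fold change from 260 h to 360 h in WT (horizontal) and in KO (vertical) of each of the 200 lincRNAs, coloured by the call of KO against WT at 360 h; the dashed line marks equal change. The 92 lincRNAs lower in KO at 360 h lie mostly below the line, some of them at or under a change of 0 in KO.

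The steepest rises in KO were those of AC140207.3, 1700017G19Rik, Gm43763, Gm40646, 1700067G17Rik and Gm27042. AC140207.3, a single-exon row on chromosome 18, went from 3.95, 5.75 and 5.35 CPM to 183, 158 and 209 (5.20 ± 0.43, adjusted p = 1.02e-05). Gm43763, near Msx1, went from 2.20, 0.684 and 2.26 to 61.6, 39.7 and 42.3 CPM (4.79 ± 0.59, adjusted p = 6.56e-05). At 360 h the WT libraries measured 240.1, 165 and 165 CPM for AC140207.3 and 30.4, 65.6 and 50.2 for Gm43763, so the genotypes overlapped for both. Gm47708, Gm26917 and Snhg6 fell in KO. Gm26917 fell from 959, 791 and 808 to 102, 35.3 and 94.7 CPM (-3.46 ± 0.62, adjusted p = 0.00174), with no overlap. Snhg6, a host gene of small nucleolar RNAs, fell from 96.6, 49.0 and 39.7 to 19.4, 15.1 and 24.9 CPM (-1.64 ± 0.41, adjusted p = 0.0097), a call lost with spike-in scaling and without KO library 1 at 260 h. Snhg6 overlaps the protein-coding gene Mcmdc2.

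The second comparison asks what the loss of Zfp541 changed at 360 h. In KO 92 members were lower and 9 higher than in WT, whereas 22.5% of all genes were called (13.5% lower and 8.93% higher). The median log2 fold change was -1.07, against 0.03 for all genes and -0.56 for the other lincRNA rows, of which 240 were lower and 38 higher. All 92 that were lower had risen in WT between the times. Both comparisons use the same WT libraries at 360 h, so a high level there moves both calls. This overlap is a description and in part set by those libraries. Of the 101 calls, 75 held under all 13 alternative fits tried (71 lower and 4 higher), and without any 1 library of the comparison 78 to 97 members were called.

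Stage markers moved with the genotype at this time. The summed level of 5 late pachytene to diplotene markers ran from 1274 to 2129 CPM in the WT libraries and from 334 to 533 in the KO libraries, and that of 6 spermatid markers from 316 to 451 and from 86.6 to 117, with no marker of either list at 0. The summed level of 7 pachytene markers overlapped, at 4988 to 7995 CPM in WT and 4490 to 5908 in KO. Markers of earlier stages leaned the other way: 7 leptotene and zygotene markers summed to 816 to 1073 CPM in WT and 1723 to 2353 in KO, with no overlap, and 8 spermatogonia markers to 67.6 to 221 and 181 to 627, with overlap. The part of cell stage in the lincRNA differences was not tested, and with cells summed per library fewer cells of a stage and less RNA per cell cannot be told apart.

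The choice of members bears on these counts. When the 200 lincRNAs were ranked instead by UMIs of the 6 libraries at 260 h, which this comparison does not use, 122 of the members stayed, 42 of the 200 were lower and 13 higher at 360 h, and the median log2 fold change was -0.33. That ranking was chosen after the data were seen, and it gives 55 called members of 200. When all libraries were scaled by their spike-ins, the median over all genes moved from 0.03 to -0.48 and 107 members were lower and 4 higher.

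The 10 largest decreases by the rule for named genes were all of RNAs that rose with time in WT, a comparison that shares the WT libraries at 360 h. Gm33340 (chr12:42966884-43034217), an RNA of 6 exons, measured 90.6, 191 and 140.3 CPM in WT and 0.252, 1.54 and 0.0907 in KO (-7.78 ± 0.76, adjusted p = 7.82e-06). 4930556C24Rik (chr16:85819211-85826769) measured 66.2, 101 and 42.7 and 0, 0.205 and 0.997 CPM (-7.30 ± 0.88, adjusted p = 4.63e-05). 1700003I22Rik (chr1:56018978-56020203), whose start region is printed above, measured 319.9, 376 and 262 and 3.03, 3.18 and 0.453 CPM (-7.19 ± 0.97, adjusted p = 0.000285). In all 3 RNAs each KO library lay far below every WT library.

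1700025F24Rik measured 37.2, 93.4 and 52.2 CPM in WT and 0.504, 0.307 and 0.453 in KO (-7.14 ± 0.68, adjusted p = 5.01e-06). Gm41349 measured 69.8, 99.9 and 59.1 and 0.504, 1.23 and 0.363 CPM (-6.74 ± 0.63, adjusted p = 4.15e-06). 1700047M11Rik measured 117, 115 and 89.8 and 0.63, 1.74 and 2.09 CPM (-6.13 ± 0.54, adjusted p = 2.73e-06). No known role is given here for these RNAs, and their groups did not overlap, which the rule requires. Log2 fold changes of the other 4 were -6.40 for 1700007H22Rik, -6.40 for Gm6455 (a transcribed pseudogene in RefSeq), -6.12 for 1700047G03Rik and -5.93 for Gm43101. The 10 calls held under every alternative fit tried.

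The level reached in KO varied among the RNAs that rose in WT. For the 153 members that rose in WT, the KO mean at 360 h was a median of 29.6% of the WT mean (quartiles 9.17% and 56.3%). The rise and this ratio use the same WT libraries at 360 h, which lowers the ratio in part by choice. It was under 5% for 29 members, 5% to 10% for 10, 10% to 25% for 29, 25% to 50% for 33, 50% to 75% for 38 and over 75% for 14. These bands divide one continuous range. Of the 106 members that rose in both genotypes, 53 were lower in KO at 360 h and 53 were not called there.

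The head-to-head pairs differed in their calls. Gm35584 measured 137 ± 29.0 CPM in WT and 6.93 ± 3.49 in KO at 360 h (-4.29 ± 0.63, adjusted p = 0.000241), and 4930535E02Rik, which starts 62 bases away, measured 121 ± 23.7 and 7.75 ± 3.42 CPM (-3.96 ± 0.80, adjusted p = 0.00321). Both members of this pair were lower. Gm10619 measured 172 ± 25.5 and 128 ± 10.4 CPM (-0.42 ± 0.31, adjusted p = 0.361), and its partner Gm21269 measured 682 ± 96.2 and 351 ± 12.2 (-0.96 ± 0.25, adjusted p = 0.0114). Of this pair Gm21269 alone was called, and in each of the remaining pairs 1 partner was called. Gm31072 had a log2 fold change of -2.19 ± 0.64, adjusted p = 0.0262, and 1700100I10Rik of -0.93 ± 0.35, adjusted p = 0.0696. Gm26654 had -2.34 ± 0.57, adjusted p = 0.00996 and 4930477E14Rik -0.52 ± 0.43, adjusted p = 0.418. Whether partners differ from each other was not tested. The calls of Gm21269 (without WT library 1 or KO library 3) and of Gm31072 (without any 1 of the 6 libraries) were lost when a library was left out, and that of Gm31072 also without the pre-meiotic cells.

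Of the 10 most abundant lincRNAs, 4 were called at 360 h, all lower: 1700018B24Rik (-0.95 ± 0.32, adjusted p = 0.0442), Gm2762 (-1.11 ± 0.32, adjusted p = 0.0203), Gm31072 and Gm21269. The calls of 1700018B24Rik and Gm2762 were lost without WT library 2, KO library 2 or KO library 3, and that of 1700018B24Rik also without WT library 1 or without the pre-meiotic cells. Rbakdn measured 2963 ± 968 CPM in WT and 1500.3 ± 372 in KO, a difference that was not called (-0.98 ± 0.49, adjusted p = 0.168). Neither were those of 1700008K24Rik (-0.46), 4930444F02Rik (-0.47), 1700029M20Rik (-0.71) and Gm10076 (-0.54). By rank, 19 of the first 50 members were lower, 26 of the next 50, 20 of the next and 27 of the last 50.

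Malat1, a nuclear RNA of splicing speckles found in most cells, was the third most abundant. It measured 1805, 1182 and 718 CPM in WT and 995, 1731 and 1338 in KO at 260 h, and 602, 1100.0 and 875 and 1226, 1106 and 977 at 360 h. The groups overlapped at both times, and no comparison called it. Its neighbour Neat1, which builds paraspeckles, measured 57.6, 36.6 and 31.9 CPM in WT and 36.6, 40.3 and 35.0 in KO at 360 h, also with overlap and no call (-0.17 ± 0.45, adjusted p = 0.82).

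The 9 members higher in KO at 360 h were Gm15706, D330050G23Rik, Gm2694, Bc1, 1700031P21Rik, Gm49192, Mir9-3hg, 1700048O20Rik and 5031425E22Rik. Gm15706 measured 3.67, 5.56 and 5.00 CPM in WT and 95.0, 66.2 and 66.9 in KO (4.00 ± 0.40, adjusted p = 7.14e-06), and 3.07, 6.76 and 6.48 and 7.53, 12.6 and 8.44 at 260 h. The RNA was thus at 12.6 CPM or less in all 9 libraries other than those of KO at 360 h.

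Bc1 (chr7:144914470-144914637) is a short RNA polymerase III transcript of rodents, known as a repressor of translation in neurons and also present in testis. It measured 56.8, 139 and 135 CPM in WT and 460.5, 289.7 and 531 in KO at 360 h (1.95 ± 0.42, adjusted p = 0.00363), with no overlap. At 260 h it measured 557, 217 and 207 and 299, 372 and 459 CPM, with overlap. Its whole annotated sequence of 168 bases on GRCm38 is shown because it holds an inner run of adenines, and the libraries were labelled as polyA RNA. Where the counted molecules were primed was not tested.
Bc1: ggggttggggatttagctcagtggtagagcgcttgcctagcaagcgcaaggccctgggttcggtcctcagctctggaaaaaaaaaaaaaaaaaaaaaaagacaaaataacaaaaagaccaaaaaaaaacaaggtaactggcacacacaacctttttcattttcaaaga

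Mir9-3hg, a host of miR-9, measured 16, 17.2 and 24.4 CPM in WT and 76.4, 39.7 and 54.1 in KO (1.56 ± 0.36, adjusted p = 0.00558). 1700048O20Rik measured 113, 180.1 and 89.1 and 328, 309 and 333 CPM (1.34 ± 0.35, adjusted p = 0.0111), and 5031425E22Rik, head to head with the histone reader gene Kmt2e, 25.2, 33.7 and 36.3 and 55.5, 69.5 and 95.0 (1.21 ± 0.31, adjusted p = 0.0107). In each the groups did not overlap. The calls of Mir9-3hg, 1700048O20Rik, 5031425E22Rik, 1700031P21Rik and Gm49192 were lost with spike-in scaling. All but that of Mir9-3hg were also lost without some libraries: 1700048O20Rik without WT 1 or 3, 5031425E22Rik without WT 1 or KO 3, Gm49192 without WT 2 or 3 or KO 2 or 3, and 1700031P21Rik without any except WT 3. That of 1700031P21Rik was also lost without the pre-meiotic cells. The calls of Gm15706, D330050G23Rik, Gm2694 and Bc1 held throughout.

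**Figure D3:**
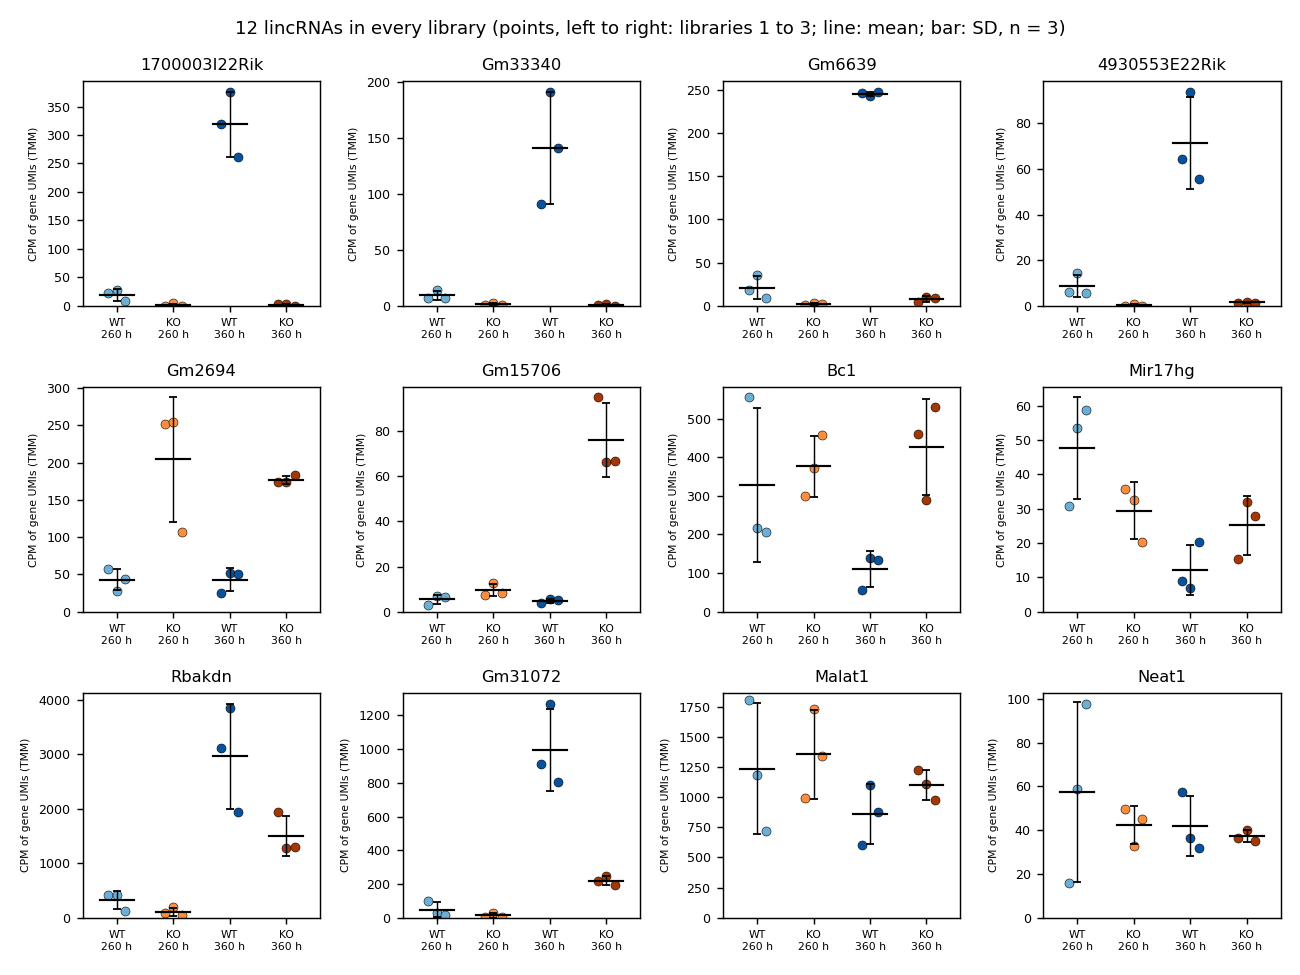
CPM of 12 of the lincRNAs in every library, by group, on axes that start at 0; points are libraries 1 to 3 from left to right, the line is the mean and the bar the SD (n = 3). 1700003I22Rik, Gm33340, Gm6639 and 4930553E22Rik are highest in the 3 WT libraries at 360 h, Gm2694 is higher in both KO groups, and the Malat1 and Neat1 groups overlap.

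The third comparison asks what differed between the genotypes at 260 h. In KO 26 members were lower and 1 was higher, whereas 1.89% of all genes were called (1.31% lower and 0.582% higher). The median log2 fold change was -0.91, against -0.01 for all genes and -0.12 for the other lincRNA rows, of which 7 were lower and 5 higher. At an unadjusted p below 0.05 (edgeR), 87 of the 200 members and 134 of the 1087 other lincRNA rows passed. The part of the higher counts of the members in these contrasts was not tested. Some of the stage markers moved with the genotype at this time too. The 7 pachytene markers summed to 2313 to 4225 CPM in WT and 1498 to 2039 in KO, and the 6 spermatid markers to 51.8 to 79.0 and 10.9 to 33.5, both with no overlap. The 5 late pachytene to diplotene markers summed to 169 to 291 CPM in WT and 63.0 to 176 in KO, with overlap. Markers of earlier stages overlapped as well, unlike the leptotene and zygotene list at 360 h. The 7 leptotene and zygotene markers summed to 2607 to 2873 CPM in WT and 2237 to 3126 in KO. The 8 spermatogonia markers summed to 501 to 950 and 568 to 734. The part of these stages in the differences was not tested. Ranking the lincRNAs by UMIs of the 6 libraries at 360 h, which this comparison does not use, gave 28 lower and 1 higher of 200, with a median of -0.94. That ranking kept 187 of the members, so it is close to the same list. With WT library 3 as the only WT library, 7 members were called, all lower, and the median was -0.63; that lone library is assumed to vary like the others. Without WT library 2, KO library 1 or KO library 3, 12, 16 and 13 members were called, and 9 when only the 2 groups compared were fitted.

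The calls of Gm21388, AC140207.3, Gm6567 and 4930553E22Rik held under all 14 alternative fits. Gm21388 (chr3:34826669-34879283) measured 75.4, 114 and 85.5 CPM in WT and 25.3, 26.7 and 19.6 in KO (-1.94 ± 0.24, adjusted p = 0.00103). AC140207.3 measured 26.0, 53.0 and 15.7 and 3.95, 5.75 and 5.35 CPM (-2.65 ± 0.40, adjusted p = 0.00331). Gm6567 measured 29.1, 90.0 and 25.6 and 6.15, 6.98 and 8.65 CPM (-2.74 ± 0.46, adjusted p = 0.00549). In each the KO libraries lay below all 3 WT libraries, WT library 3 included. 4930553E22Rik had 0 CPM in 2 KO libraries and measured 6.15, 14.2 and 5.39 CPM in WT and 0, 0.821 and 0 in KO (-4.92 ± 0.80, adjusted p = 0.00466). It has a mean under 10 CPM at this time and so falls outside the rule for named genes; it was chosen after its values were seen.

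The 10 decreases that the rule names were those of Gm6639, Gm6567, AC140207.3, AC140207.2, 4933435G04Rik, 4930414F18Rik, Gm5922, Gm21388, Gm31138 and 1700100I10Rik. Gm6639 (chr3:35597152-35666163), a locus with a transcript of 19 exons and Atp11b as its nearest coding gene, measured 18.2, 36.1 and 9.03 CPM in WT and 1.01, 3.01 and 1.85 in KO (-3.44 ± 0.53, adjusted p = 0.00389). Its call was lost with WT library 3 as the only WT library, as were those of the other 6 that did not hold throughout. Those of Gm5922 and Gm31138 were also lost without WT library 2, KO library 1 or KO library 3. That of 1700100I10Rik was lost without these or without WT library 1.

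Some decreases at 260 h were no longer called at 360 h. AC140207.3 and AC140207.2, 35060 bases apart and pointing away from each other, are 1 such case. AC140207.2 measured 117, 275 and 67.8 CPM in WT and 18, 26.3 and 32.5 in KO at 260 h (-2.59 ± 0.41, adjusted p = 0.00411), and 706, 737 and 615 and 401, 485 and 480.1 at 360 h (-0.59 ± 0.38, adjusted p = 0.29). Gm6567 and 4933435G04Rik, 22383 bases apart and also divergent, had log2 fold changes of -2.74 and -2.50 at 260 h and of -0.96 and -0.79 at 360 h, where neither was called. The interaction was called for AC140207.3 (2.60 ± 0.52, adjusted p = 0.0097) and not for Gm6567 (1.78 ± 0.61, adjusted p = 0.105). The call of AC140207.3 did not hold under all 19 alternatives. The interaction was called for AC140207.2 too (1.99), and that call was lost under 14 of them.

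Gm2694 (chr8:87460469-87525554), a lincRNA whose locus overlaps Cbln1, a gene for a secreted synaptic organiser, was the only member higher in KO at 260 h and was higher at both times. It measured 57.5, 28.3 and 43.6 CPM in WT and 251, 254 and 107 in KO at 260 h (2.25 ± 0.38, adjusted p = 0.00549). At 360 h it measured 24.8, 52.5 and 51 and 173, 174 and 184 CPM (2.05 ± 0.37, adjusted p = 0.00108). The groups did not overlap at either time, and the change with time was not called in either genotype. The 260 h call was lost with spike-in scaling, without WT library 2 and with WT library 3 alone. Within cluster 3 it measured 39.5 CPM of gene UMIs in WT library 3 and 317, 265 and 189 in the KO libraries. Within the pre-meiotic cells of cluster 1 it measured 78.9, 57.1 and 76.3 CPM in the WT libraries and 165, 223 and 63.6 in the KO libraries, where the genotypes overlapped because KO library 3 lay below 2 of the WT libraries.

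The 2 genotype comparisons share no library. Of the 26 members lower in KO at 260 h, 18 (69.2%) were also lower at 360 h, which is 19.6% of the 92. No member was called in opposite directions. Over the 200 members the log2 fold changes at the 2 times had a Pearson correlation of 0.51 and a Spearman correlation of 0.50, given as a description since members are not replicates, and 166 had the same sign.

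**Figure D4:**
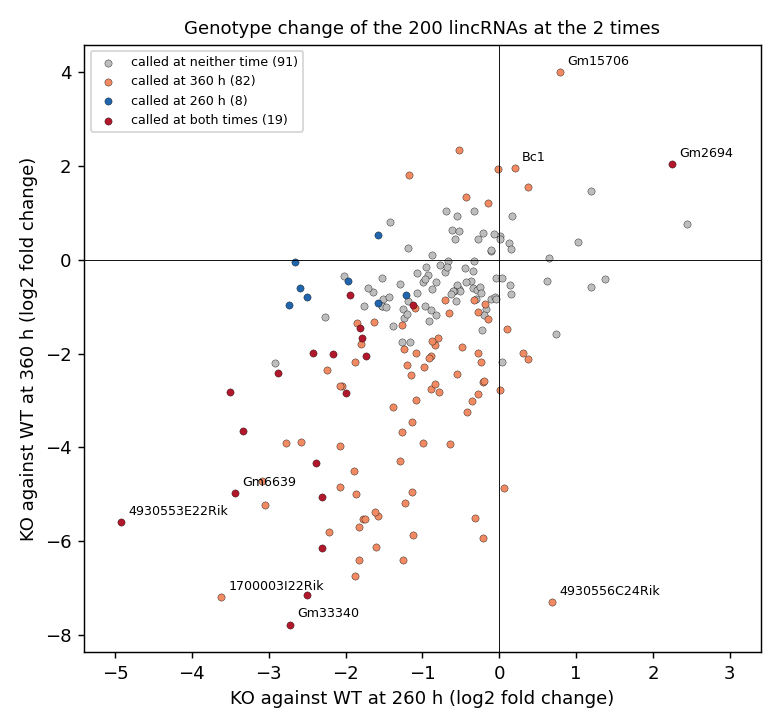
Log2 fold change of KO against WT at 260 h (horizontal) and 360 h (vertical) for the 200 lincRNAs, coloured by the times at which each was called. Of the 19 called at both times, 18 lie in the lower left and Gm2694 in the upper right.

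The same comparison can be read within cells of 1 cluster, with no test. In cluster 3, where WT library 3 faces the 3 KO libraries, the median log2 ratio of the mean KO to the WT level was -0.27 over the 200 members and 0.12 over all genes tested, and 128 members (64.0%) were lower in KO, against 43.9% of all genes. In cluster 1, the pre-meiotic cells by the deposited annotation, with 3 libraries of each genotype at 260 h, the median was -0.61 over the members and 0 over all genes, and 140 members (70.0%) were lower, against 49.6%. These ratios used a pseudocount of 0.5 CPM.

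The fourth comparison asks whether the genotype effect differed between the times. The interaction was called for 8 members in the direction of a higher KO effect at 360 h and for 14 in the other direction, whereas 5.08% of all genes were called (2.3% higher and 2.78% lower). The count was 35 without WT library 1 at 260 h and 13 without KO library 2 at 260 h. The median over the members was -0.33, against 0.04 for all genes, and it had the opposite sign (0.12) without KO library 2 at 260 h. Gm47708 rose in WT from 22.5 ± 5.26 to 102 ± 15.7 CPM and fell in KO from 7.42 ± 3.18 to 2.28 ± 1.46 (interaction -3.87 ± 0.62, adjusted p = 0.00216). AY702103, near the germ cell gene Dazl, was lower in KO at both times (-2.31 and -5.06), and the difference of the 2 changes was called (-2.74 ± 0.53, adjusted p = 0.00732). Both were chosen after their values were seen, since their calls held under all 19 alternatives.

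The k-means clusters of the deposited cell table separate stage and genotype, so levels by cluster repeat the group differences in part. Per library and cluster with at least 5 cells, the 200 lincRNAs held 0.999% of gene UMIs in cluster 1 (pre-meiotic, 8 libraries), 1.34% in cluster 2 (3 libraries), 1.10% in cluster 3 (4 libraries), 1.86% in cluster 4 (3 libraries) and 2.64% in cluster 5 (3 libraries). Clusters 4 and 5 are late pachytene by the deposited annotation, and the libraries with 5 or more cells were all KO in cluster 4 and all WT in cluster 5. The shares of the 3 libraries ran from 1.84% to 1.88% in cluster 4 and from 2.38% to 2.86% in cluster 5. Cluster 2 mixed genotypes and times: WT libraries 1 and 2 at 260 h had 1.45% and 1.50%, and KO library 2 at 360 h, with 5 cells, had 1.06%. Median UMIs per cell were 88543, 63430, 105595.5, 106760 and 176298 in clusters 1 to 5, so depth moved with the clusters, and its part in the shares was not tested. By mean level, 13, 11, 7, 26 and 143 members were highest in clusters 1 to 5.

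**Figure D5:**
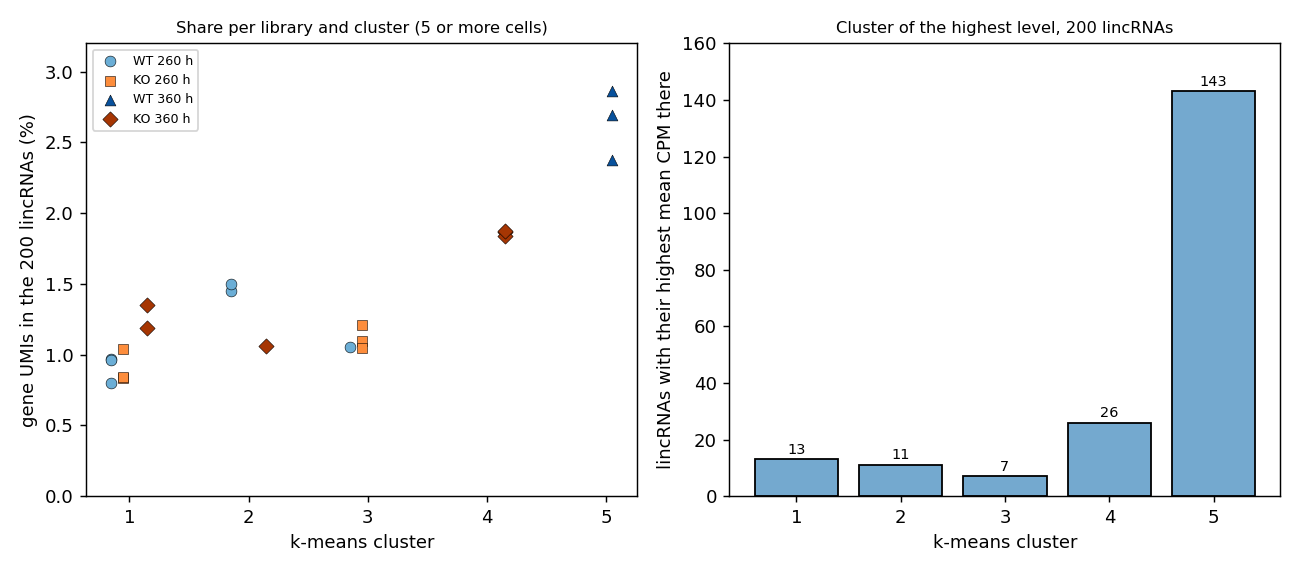
Left, share of gene UMIs in the 200 lincRNAs for each library in each k-means cluster where it had 5 or more cells; right, number of the 200 lincRNAs whose mean CPM over libraries is highest in each cluster (bars start at 0). The WT libraries at 360 h in cluster 5 are the highest points and the KO libraries in cluster 4 lie between them and clusters 1 to 3; 143 lincRNAs peak in cluster 5.

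The leading members of each cluster are given as CPM of gene UMIs, in the order of clusters 1 to 5. Gm12031 was highest in the pre-meiotic cells, with means of 254, 45.6, 32.4, 29.7 and 10.6. Bc1 was also highest there, with 1058, 416, 119, 363 and 82.7. 1700031P21Rik had 263, 91.3, 49.1, 65.7 and 15.4. All 3 RNAs had their lowest mean in cluster 5, where most members had their highest. AC160336.1, the other leading member of cluster 1, overlaps the gene Gm5624, and its counts are uncertain.

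Members led by the middle clusters were few. The means of cluster 2 weight KO library 2 at 360 h, with 5 cells there, like WT libraries 1 and 2 at 260 h. In cluster 2 they were Mir124-2hg, a host of miR-124 (54.3 CPM, with 36 in cluster 1), Gm48544 (61.9, with 41.8 in cluster 5) and 4930568E12Rik (82.7, with 62.2 in cluster 5). In cluster 3 they were Gm13830, head to head with the dynein light chain gene Dynll1 (42.0, with 20.9 in cluster 5), Neat1 (72.4) and Gm26870 (639). The level of Gm26870 differed widely between libraries of the same group at 260 h (values further below), so its mean in cluster 3 is uncertain. In cluster 4 Gm15706 led with 77.3 ± 8.60 CPM against at most 16.3 elsewhere. 4933433G15Rik, head to head with the kinase gene Mapk6, followed with 367 ± 22.6 against 146 in cluster 5, then Mir9-3hg with 58.1 ± 13.0 against 27.2 in cluster 3. In cluster 5 1700007H22Rik led with 73.7 ± 18.4 CPM against at most 1.17, then Gm32554 with 50.4 ± 27.4 against 1.07 and Gm6455 with 49.1 ± 15.4 against 1.10.

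The nearest protein-coding genes were read in the same fit. Of the 101 members called at 360 h, 76 had a tested nearest gene, and 24 of these genes were called as well, 15 in the same direction and 9 in the opposite one, where 22.5% of all genes were called. Over the 166 members with a tested nearest gene the Pearson correlation of the log2 fold changes was 0.21, a description over loci that share libraries. For the change with time in WT, 58 of 132 nearest genes of called members were called, 29 in the direction of the member and 29 in the opposite one, where 39.9% of all genes were called.

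Few members are RNAs with an established name. Of 71 known lncRNA names listed, 65 were in the table, 33 rows of them as lincRNA, and 9 were members: Malat1, Bc1, Neat1, Snhg6, Epb41l4aos, Mir17hg, Snhg12, Mir124-2hg and Snhg20. Snhg12, Snhg20 and Epb41l4aos, which host small nucleolar RNAs, passed the test in neither genotype comparison (-0.14, 0.05 and -0.46 at 360 h). Xist with 141 UMIs, H19 with 472 and Meg3 with 948 fell below rank 200. Of the 53 listed rows tested, 7 were higher and 3 lower in KO at 360 h, where 22.5% of all genes were called.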

How the data were processed

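Counts were used as deposited: whole-number UMI counts per gene and cell, in 12 libraries of 3' ends prepared by a Smart-seq2 variant, per the labels' protocols. Per the submitters' processing notes, the build was mm10 and the tools were STAR 2.5.3a, featureCounts 1.6.4 and UMI-tools 1.0.0; no source used here states how strand was treated. UMIs of the 929 cells in the authors' deposited cell table were summed per library, and spike-ins were left out. edgeR 4.0.16 (R 4.3.3) fitted 4 group means to the 12 libraries with TMM scaling, a filter on low counts and the robust quasi-likelihood test, and p-values were adjusted over 20279 genes. The script was tested on simulated data. The members and lists were chosen with earlier results of these data known. Named are the 10 most abundant members, per genotype comparison the 10 called members with the largest change in each direction (6 for the other comparisons), with no overlap and a mean of at least 10 CPM, listed known lncRNAs, 3 rows on each side of rank 200 and 3 leading members per cluster. Alternatives were DESeq2 1.42.0, RLE size factors, no filter, spike-in scaling, a replicate block, no pre-meiotic cells, the 2 groups alone, other rankings and leaving out each library. No 2 libraries of the same group agreed within sampling noise, and pairs across groups were not checked for this.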

Additional observations from a re-analysis of the deposited data

Results flagged for a closer look

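The genotype effect differed between the times, by the interaction of edgeR's quasi-likelihood fit with Benjamini-Hochberg adjustment over 20279 genes, for 22 members. The named ones with a KO effect that was higher at 360 h than at 260 h were Gm15706 (difference of log2 fold changes 3.21), Gm49192 (2.98), D330050G23Rik (2.86), Mir124-2hg (2.23), Gm31904 (2.11) and AC140207.2 (1.99). Those with a KO effect that was lower at 360 h were 4930556C24Rik (-7.99), Gm33340 (-5.06), Gm41349 (-4.86), 1700025F24Rik (-4.64), 1700047G03Rik (-4.51) and 1700023F02Rik (-3.96). The calls of Gm15706, 4930556C24Rik and 1700025F24Rik held under all 19 alternatives. Those of D330050G23Rik and Gm31904 were lost only with spike-in scaling, that of Gm33340 only with WT library 3 as the only WT library at 260 h, and that of Gm41349 only without KO library 2 at 260 h. That of 1700047G03Rik was lost without KO library 2 at 260 h or without the pre-meiotic cells. That of 1700023F02Rik was lost without WT library 3, KO library 2 or KO library 3 at 260 h, without KO library 3 at 360 h, and with WT library 3 as the only WT library at 260 h, and those of Gm49192, Mir124-2hg and AC140207.2 under 10, 11 and 14 alternatives. Gm31904 measured 19.4, 26.5 and 44.0 CPM in WT and 10.3, 10.5 and 9.47 in KO at 260 h, and 53.4, 58.9 and 38.4 and 68.2, 66.2 and 83.8 at 360 h.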

How the results depend on the processing

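The number of members called at 260 h was 27, and it was 57 with DESeq2, 55 with no filter on low counts, 9 with only the 2 groups compared, 7 with WT library 3 as the only WT library, and 12 to 36 without 1 library. At 360 h it was 101, and 55 when lincRNAs were ranked by the 260 h libraries; without 1 library it was 78 to 97. The median log2 fold change at 360 h was -1.07, and it was -1.57 with spike-in scaling, -0.33 with the 260 h ranking and -1.30 to -1.0 without 1 library. The number with a called difference between the times was 22, and it was 43 with DESeq2, 48 with no filter and 13 to 35 without 1 library. Its median was -0.33, and it was -0.66 with WT library 3 as the only WT library at 260 h and -0.51 to 0.12 without 1 library, with the sign reversed without KO library 2 at 260 h. The median change with time in WT was 2.52, and it was 2.18 without pre-meiotic cells, 3.0 with spike-in scaling and 3.13 with WT library 3 as the only WT library at 260 h. In KO the median was 1.67 and ran from 1.6 to 2.09 without 1 library. The counts of calls with time (162 in WT and 119 in KO) moved by less than the limits set under every alternative tried. The 4 shares of UMIs did too, but their limit was the SD of the 3 libraries. Leaving out 1 of 3 libraries cannot move a mean that far, so those checks could not show a dependence. The ranking by mean level kept nearly all members, so it could move the shares little. The cause of the movements in the other values was not tested. The 260 h comparisons with WT library 3 alone and the rankings by time were chosen after the data were seen.

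With the replicate number as a block, 29 members were called at 260 h, 98 at 360 h, 158 with time in WT, 117 with time in KO and 22 for the difference. Of the named genes, 1700031P21Rik and Gm40646 at 360 h, 1700025F24Rik at 260 h, Snhg12, Gm15389 and 5031425E22Rik with time in KO, and Mir124-2hg and AC140207.2 for the difference were not called under the block. The numbers do not pair the libraries: the correlation of deviations of same-numbered libraries ran from -0.204 to 0.168. The 3 libraries a group, hand-picked cells and unknown strand limit these values, and low members have few UMIs at 260 h.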

Other observations

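A few members differed between libraries of 1 group by far more than between groups. Gm48168 measured 141, 2.74 and 1.33 CPM in WT and 151, 3.69 and 1.99 in KO at 360 h, and 17.5, 0 and 0.291 and 0, 8.76 and 0.206 at 260 h, so library 1 of both genotypes was high at 360 h and the other 4 were not. Gm26870, which overlaps 9 other gene rows, measured 12.3, 225 and 84.9 CPM in WT and 209, 9.17 and 1546 in KO at 260 h. 1700104B16Rik measured 340.1, 5.09 and 139.8 and 137, 45.4 and 1.36 CPM at 360 h. Gm15728 measured 6.78, 5.00 and 127 CPM in WT at 360 h, with library 3 alone high. None of these 4 was called in a genotype comparison. They were chosen after their values were seen, and the cause was not tested.

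Other classes of rows had these calls at 360 h. Of 898 antisense rows tested, 163 were lower and 34 higher in KO at 360 h (median log2 fold change -0.31), and of 1064 rows annotated as to be experimentally verified (TEC), 41 were lower and 82 higher (median 0.46). Of 14965 protein-coding rows, 2015 were lower and 1515 higher (median 0.04). These classes were not chosen by UMIs, and no test compared them.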
